A study of Caenorhabditis elegans with 20 samples.

Results

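The genes described here are 10 regulators of the G1 phase of the cell cycle in *C. elegans*: the cyclin and kinase pairs *cyd-1* and *cdk-4*, and *cye-1* and *cdk-2*, the CDK inhibitors *cki-1* and *cki-2*, and 4 genes that restrain entry into S phase by other routes, *cul-1*, *lin-23*, *fzr-1* and *cdc-14*. They were taken by symbol from the 19861 entries of the deposited expression tables, where all 10 had an entry at both times. RNA was sequenced from somatic gonadal precursor cells (SGPs) and from whole animals of both sexes during the first larval stage, either 9.5 hr after starved hatchlings were fed, when the SGPs Z1 and Z4 had not yet divided, or at 15 hr, when most had divided to give their daughters. The 20 samples fell into 8 groups, in triplicate at 9.5 hr (3 per group) and in duplicate at 15 hr (2 per group), and the tables hold the authors' pooled value for each group in FPKM, a count of fragments scaled by the length of the transcript and the size of the library.

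Hermaphrodite gonadal cells came from DZ685, a strain with *xol-1(y9)* and with *rdIs4*, a transgene that drives the fluorescent protein Venus from the *ehn-3a* promoter, and were sorted on Venus fluorescence. Male gonadal cells came from DZ683, which carries *tra-2(ar221)*, *xol-1(y9)* and *rdIs4*. At the restrictive temperature of *tra-2(ar221)* this strain gives XX pseudomales, so the groups called male had the sex chromosomes of hermaphrodites. The whole-animal groups were unsorted cells from dissociated larvae of DZ683 at both times and of DZ685 at 15 hr, whereas the hermaphrodite whole animals at 9.5 hr carried *xol-1(y9)* without *rdIs4*. All 8 groups therefore carried *xol-1(y9)*, each sex was 1 strain apart from that group, and sex could not be told apart from the *tra-2* allele or from strain. With 1 pooled value per group, the spread between samples and the depth of each sample are unknown. No test could be made, and every difference below is a description of these pooled values.

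The labelled cell type was described with 8 genes known from SGPs. They were chosen with earlier results of these data known, and the paper lists several as gonad-enriched, so they are no independent check. Their summed level was 590 to 788 FPKM in the 4 gonadal groups and 95.6 to 106 FPKM in the 4 whole-animal groups. *ckb-3* alone gave 276.7 FPKM in male gonadal cells at 9.5 hr. At that time 5 of the 8 had a log2 ratio of gonadal cells to whole animals of 1 or more in males, beside 10.9% of all entries. In hermaphrodites 8 of 8 did, beside 9.41%. *ehn-3*, whose promoter drove the sorting marker, was under 1 FPKM in the hermaphrodite cells sorted at 15 hr. Of 48 markers of other cell types in the tables, 46 passed the minimum of 1 FPKM in each comparison of gonadal cells with whole animals, and 42 or 43 of these were lower in gonadal cells, with medians between −2.46 and −1.71 on the log2 scale. They were not absent: 8 body wall muscle markers summed to 368 to 732 FPKM in gonadal cells, against 1794 to 2180 FPKM in whole animals. The 9 germline markers summed to 200 to 279 FPKM in gonadal cells and 166 to 268 FPKM in whole animals. Among them *mes-2* and *mes-3* were higher in each gonadal group than in any whole-animal group, whereas *pgl-1*, *glh-1* and *deps-1* were lower than in whole animals of the same sex and time.

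In the G1 phase a cell either commits to another round of DNA replication or stops dividing. D-type cyclins with CDK-4 and E-type cyclins with CDK-2 phosphorylate the retinoblastoma protein LIN-35, which frees E2F factors to switch on genes for S phase, and inhibitors of the CIP/KIP family bind and block these kinases. The SCF ubiquitin ligase and the anaphase promoting complex mark cell cycle proteins for destruction, and in worms the loss of several of these brakes gives extra larval divisions. In *C. elegans* hermaphrodites, cyclin D is known to be needed for the asymmetric first division of Z1 and Z4, and *cki-1* is known for holding larval precursor cells in G1 until they divide.

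**Figure D1:**
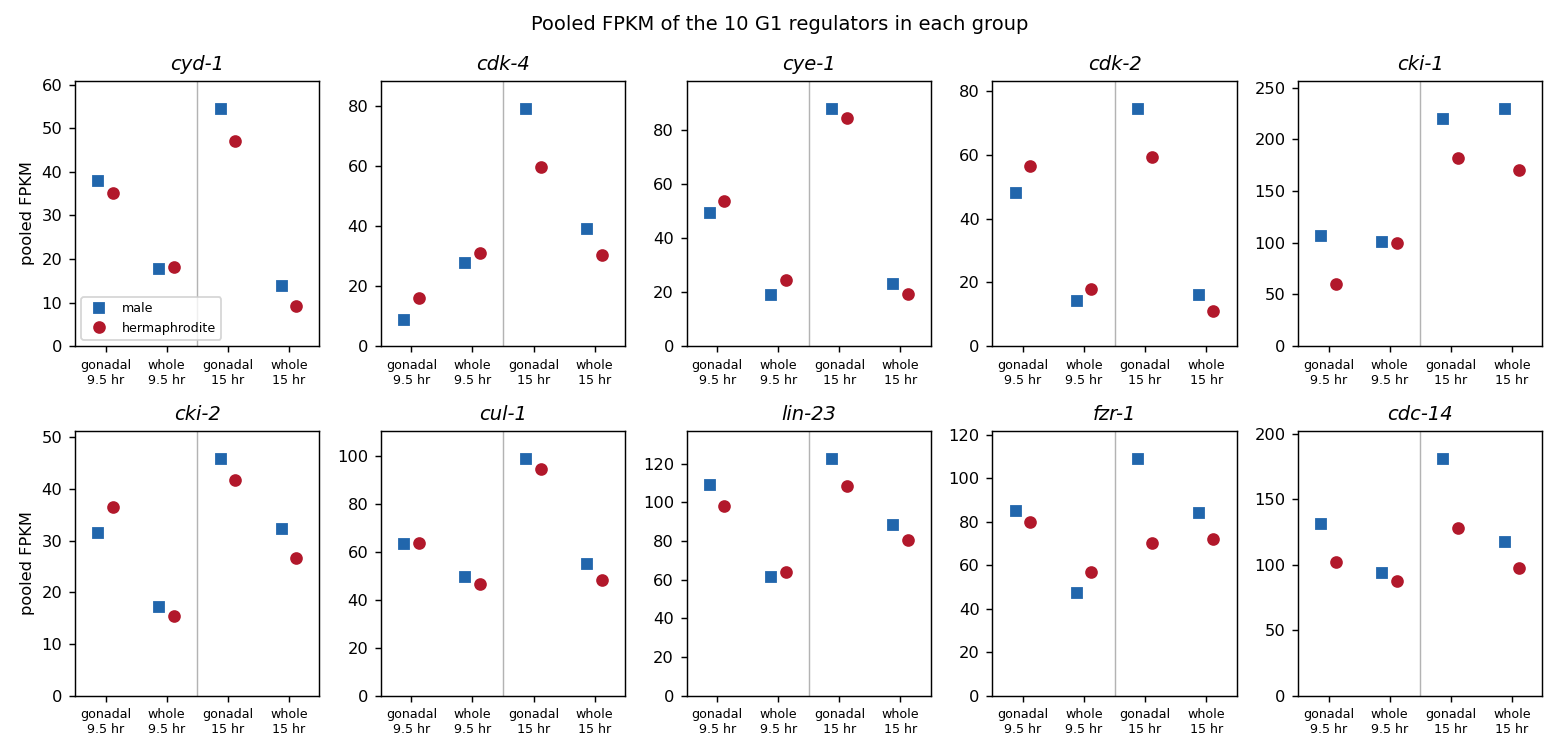
Authors' pooled FPKM (y axis, from 0, a separate scale for each gene) of the 10 G1 regulators in male (squares) and hermaphrodite (circles) groups of gonadal cells and whole animals, at 9.5 hr left of the grey line and at 15 hr right of it, where levels come from separate normalizations. *cdk-4* in gonadal cells lay below whole animals at 9.5 hr and above them at 15 hr, while *cyd-1*, *cye-1* and *cdk-2* lay above them at both times.

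*cyd-1* (ce10 chromosome II, 12980522 to 12993049), the only D-type cyclin of the worm, was more abundant in gonadal cells than in whole animals at both times. Its pooled level at 9.5 hr was 37.8 FPKM in gonadal cells of males and 35.3 FPKM in those of hermaphrodites, beside 17.8 and 18.1 FPKM in male and hermaphrodite whole animals. At 15 hr it was 54.4 and 47.1 FPKM in male and hermaphrodite gonadal cells and 13.8 and 9.24 FPKM in the whole animals. All 4 gonadal groups were thus above all 4 whole-animal groups. The share of all entries with this order, or with the other orders of groups given below, was not counted. Among entries with at least 20 FPKM in 1 of the groups compared, 60.7% to 61.5% were higher in gonadal cells in each single comparison. That subset was chosen after the values were seen. In bulk RNA, more cells of a type and more RNA per cell cannot be told apart, which holds for every gene below.

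*cdk-4* (chromosome X, 13515981 to 13518834), the kinase that CYD-1 activates, had a different order. At 9.5 hr its level was 8.80 FPKM in gonadal cells of males and 16.1 FPKM in those of hermaphrodites, the lowest of the 10 genes in both, and it was higher in whole animals, with 27.9 FPKM for males and 31.1 FPKM for hermaphrodites. At 15 hr it was 79.0 and 59.9 FPKM in male and hermaphrodite gonadal cells, and 39.0 and 30.4 FPKM in the whole animals. Male gonadal cells were therefore its lowest group at 9.5 hr and its highest group at 15 hr, 8.98 times apart, the widest range of the 10 genes, between runs that were normalized separately.

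*cye-1* (chromosome I, 6780807 to 6784360), the E-type cyclin, had 49.4 FPKM in gonadal cells of males and 53.8 FPKM in those of hermaphrodites at 9.5 hr, with 18.8 and 24.6 FPKM in the whole animals. At 15 hr it was at 87.8 and 84.5 FPKM in male and hermaphrodite gonadal cells and, in the whole animals, at 23.1 and 19.4 FPKM. Its kinase partner *cdk-2* (chromosome I, 3408035 to 3415072) followed the same order of tissues, with 47.9 and 56.6 FPKM in male and hermaphrodite gonadal cells and 14.2 and 18.0 FPKM in whole animals at 9.5 hr. At 15 hr *cdk-2* was at 74.2 and 59.2 FPKM in gonadal cells, compared with 15.9 and 11 FPKM in whole animals. For both genes the gonadal values exceeded the whole-animal values at each time, an order not counted over all entries.

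The CIP/KIP inhibitor genes *cki-1* (chromosome II, 7811189 to 7812049) and *cki-2* (chromosome II, 7816458 to 7820222) lie 4408 bases apart on the same strand, and their levels were ordered differently. At 9.5 hr *cki-1* had 106.5 FPKM in male gonadal cells but 59.6 FPKM in those of hermaphrodites, while both whole-animal groups were near the male gonadal value, at 100.4 and 99.3 FPKM. At 15 hr *cki-1* had 219.8 FPKM in male gonadal cells, 181.6 FPKM in hermaphrodite gonadal cells, 229.0 FPKM in male whole animals and 170.7 FPKM in hermaphrodite whole animals. The hermaphrodite gonadal cells at 9.5 hr were its lowest group. All 4 groups at 15 hr were above all 4 at 9.5 hr, in runs normalized separately, an order not counted over all entries. *cki-2* was lower throughout, at 31.4 and 36.6 FPKM in male and hermaphrodite gonadal cells and 17.2 and 15.4 FPKM in whole animals at 9.5 hr, and at 45.8 and 41.7 FPKM in gonadal cells beside 32.3 and 26.6 FPKM in whole animals at 15 hr. Its gonadal values exceeded the whole-animal values at each time.

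*cul-1* (chromosome III, 10471140 to 10475503), the cullin scaffold of the SCF ligase, had near-equal levels in the sexes at 9.5 hr, 63.3 and 63.6 FPKM in male and hermaphrodite gonadal cells and 49.7 and 46.5 FPKM in whole animals. At 15 hr it was at 98.8 and 94.6 FPKM in gonadal cells, compared with 54.9 and 48.4 FPKM in whole animals. *lin-23* (chromosome II, 6371273 to 6374501), an F-box protein that brings substrates to that ligase, was at 109.0 and 98.1 FPKM in male and hermaphrodite gonadal cells at 9.5 hr, and at 122.4 and 108.3 FPKM at 15 hr. In whole animals *lin-23* was at 61.2 and 63.9 FPKM at 9.5 hr and at 88.2 and 80.4 FPKM at 15 hr, so that both genes were highest in gonadal cells at each time.

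*fzr-1* (chromosome II, 9640936 to 9644407), the Cdh1-type activator of the anaphase promoting complex, was at 84.9 and 79.6 FPKM in male and hermaphrodite gonadal cells and at 47.2 and 56.7 FPKM in whole animals at 9.5 hr. At 15 hr it was at 108.7 FPKM in male gonadal cells but at 70.0 FPKM in those of hermaphrodites, and the whole-animal values, 83.7 and 71.9 FPKM, lay between them. *cdc-14* (chromosome II, 5586148 to 5593410), a phosphatase that acts with *cki-1* in worms to keep precursor cells quiescent, was at 131.1 and 102.5 FPKM in male and hermaphrodite gonadal cells and 93.6 and 87.8 FPKM in whole animals at 9.5 hr. At 15 hr *cdc-14* was at 180.7 and 128.1 FPKM in gonadal cells, compared with 117.5 and 97.7 FPKM in whole animals. The listed locus of *cdc-14* overlaps *lys-8*, a lysozyme gene on the opposite strand, and the use of strand in counting is not given in the sources used here, so its levels are uncertain. *lys-8* had the opposite order of tissues, from 20.8 to 40.6 FPKM in the gonadal groups and from 101.5 to 200.6 FPKM in the whole-animal groups.

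FPKM is scaled by transcript length, so that levels can be set beside each other within a group. In male gonadal cells at 9.5 hr the order ran from *cdc-14* at 131.1 FPKM through *lin-23*, *cki-1*, *fzr-1*, *cul-1*, *cye-1*, *cdk-2*, *cyd-1* and *cki-2* to *cdk-4* at 8.80 FPKM. The step from *cki-2* to *cdk-4* was 3.57-fold there, whereas the other steps were between 1.02-fold and 1.34-fold. In hermaphrodite gonadal cells at 9.5 hr the step above *cdk-4* was 2.19-fold and the others were at most 1.47-fold. Without a spread over samples, neighbours in this order cannot be separated. At 15 hr *cki-1* led in all 4 groups, *cki-2* was last in both gonadal groups, *cyd-1* was last in both whole-animal groups, and *cdk-4* stood seventh of the 10 in both gonadal groups, between *cdk-2* below it and *cye-1* or *fzr-1* above it.

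The relation between the partners of a pair differed more between groups for *cdk-4* and *cyd-1* than for *cdk-2* and *cye-1*. The ratio of *cdk-4* to *cyd-1* FPKM was 0.233 in male and 0.457 in hermaphrodite gonadal cells at 9.5 hr, and 1.57 and 1.72 in male and hermaphrodite whole animals. At 15 hr it was 1.45 and 1.27 in gonadal cells, and whole animals had 2.84 and 3.29. The kinase transcript was thus below the cyclin transcript in the undivided SGPs of both sexes and above it in the other 6 groups. The ratio of *cdk-2* to *cye-1* stayed between 0.569 and 1.05 over all 8 groups. The ratio of *cki-1* to *cki-2* was lowest in hermaphrodite gonadal cells at 9.5 hr, at 1.63, was 3.39 in male gonadal cells at that time, and lay between 4.36 and 7.09 in the remaining groups.

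**Figure D2:**
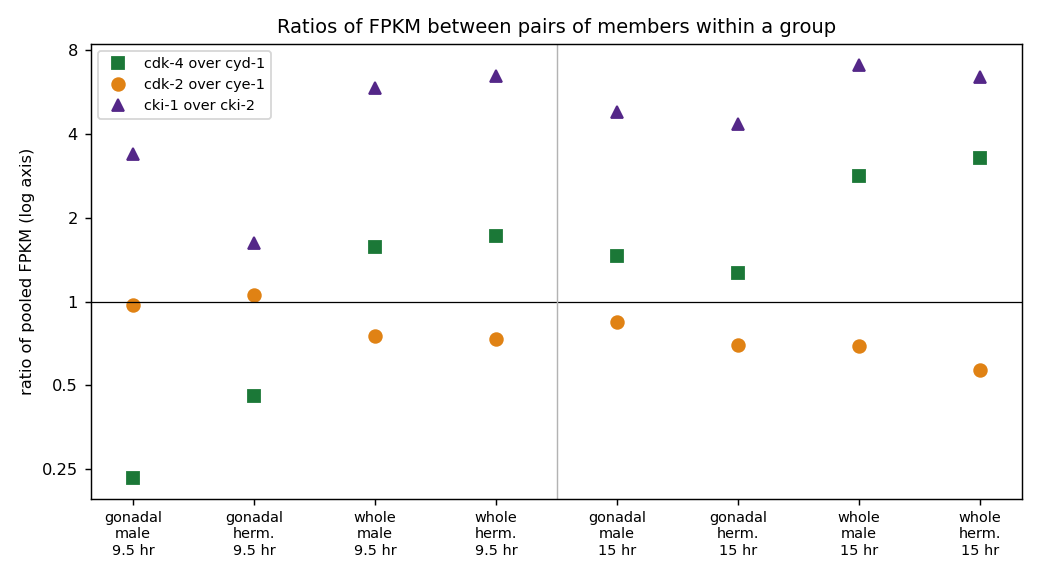
Ratio of the authors' pooled FPKM (y axis, log scale) of *cdk-4* to *cyd-1* (squares), *cdk-2* to *cye-1* (circles) and *cki-1* to *cki-2* (triangles) in each of the 8 groups (herm., hermaphrodite), with 9.5 hr left of the grey line. The *cdk-4* to *cyd-1* ratio lay below 1 in the gonadal groups at 9.5 hr, at 0.233 and 0.457, and above 1 in the other 6 groups.

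Which of these genes were more abundant in gonadal cells than in the animal as a whole was asked next, with the log2 ratio of (FPKM + 1) among entries with at least 1 FPKM in 1 of the groups compared. At 9.5 hr no member reached a log2 ratio of 2, the 4-fold cutoff of the study, where 2.89% of 16748 entries did in males and 2.19% of 18102 did in hermaphrodites. In males *cdk-2* (1.69), *cye-1* (1.35) and *cyd-1* (1.05) reached a log2 ratio of 1, 3 of 10 members beside 10.9% of all entries, and *cdk-4* alone was at −1 or below, at −1.56, beside 31%. In hermaphrodites *cdk-2* (1.6), *cki-2* (1.2) and *cye-1* (1.1) reached 1, beside 9.41% of all entries, and none of the 10 was at −1 or below, where 40.2% of entries were. The lowest member there was *cdk-4* at −0.91, followed by *cki-1* at −0.73.

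At 15 hr the G1 cyclins and *cdk-2* stood highest. In hermaphrodites *cdk-2* (2.32), *cyd-1* (2.23) and *cye-1* (2.07) passed a log2 ratio of 2, beside 3.05% of 15219 entries. In males *cdk-2* (2.15) passed it, beside 2.86% of 15176 entries, with *cyd-1* at 1.91 and *cye-1* at 1.88 just under. No other member reached a ratio of 1 in either sex, where 16.4% of entries did in males and 19.2% in hermaphrodites. *cdk-4*, at 1.00 in males after rounding up and 0.96 in hermaphrodites, and *cul-1*, at 0.84 and 0.95, came nearest. No member was at −1 or below at this time, compared with 34.3% of entries in males and 38.2% in hermaphrodites.

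The median log2 ratio of the 10 members was 0.83 and 0.55 in males and hermaphrodites at 9.5 hr, where the medians of all entries were −0.29 and −0.62. At 15 hr the members' medians were 0.73 and 0.79, and those of all entries −0.10 and −0.22. Whole-animal groups had 14528 to 17947 entries at 1 FPKM or more and gonadal groups 12506 to 13700. Among entries with at least 20 FPKM in 1 of the groups, a subset chosen after the values were seen, the medians were 0.25 and 0.30 at 9.5 hr and 0.35 and 0.40 at 15 hr. Of this subset 24.1% and 23.8% were at −1 or below at 9.5 hr, and 26.5% and 28.15% at 15 hr, lower shares than of all entries. At 1 or more were 15.3% and 15.0% at 9.5 hr, and 20.2% and 25.7% at 15 hr, higher shares than of all entries. The log2 ratios of *cki-1* were 0.08 and −0.73 at 9.5 hr and −0.06 and 0.09 at 15 hr, above the median of all entries in 3 of the 4 comparisons and below that of the subset in all 4. Those of *cki-2* were 0.83, 1.2, 0.49 and 0.63, above both medians in all 4.

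The gonadal ratio of *cdk-4* was 2.56 higher on the log2 scale at 15 hr than at 9.5 hr in males, and 1.86 higher in hermaphrodites. For *cyd-1* this difference was 0.86 in males and 1.31 in hermaphrodites, for *cye-1* 0.54 and 0.97, and for *cdk-2* 0.46 and 0.72. Among the genes that restrain S phase, *cul-1* had a higher ratio at 15 hr by 0.49 and 0.51, while the differences were −0.35 and −0.19 for *lin-23* and −0.46 and −0.52 for *fzr-1*. For *cdc-14* they were 0.13 and 0.17, for *cki-1* −0.14 and 0.82, and for *cki-2* −0.34 and −0.57. These differences were not tested. The median gonadal ratio of all entries was also higher at 15 hr, at −0.10 against −0.29 in males and −0.22 against −0.62 in hermaphrodites. In the subset with 20 FPKM it was 0.35 against 0.25 and 0.40 against 0.30.

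**Figure D3:**
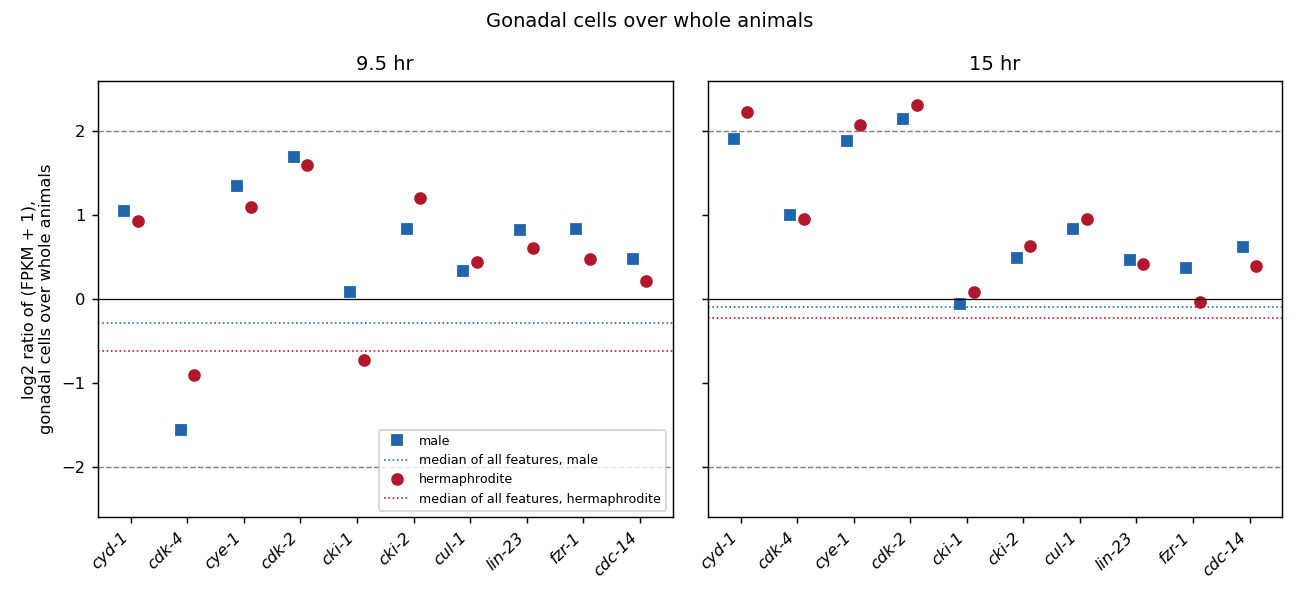
Log2 ratio of (pooled FPKM + 1) of gonadal cells over whole animals (y axis) for the 10 members in males (squares) and hermaphrodites (circles) at 9.5 hr (left) and 15 hr (right); dashed lines mark ratios of −2 and 2 and dotted lines the median of all entries that passed the filter, in the colour of the sex. *cdk-4* stood at −1.56 and −0.91 at 9.5 hr and at 1.00 and 0.96 at 15 hr. At 15 hr *cdk-2* lay above 2 in both sexes, and *cyd-1* and *cye-1* did in hermaphrodites only.

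Male and hermaphrodite gonadal cells were compared to ask whether the G1 regulators differed between the sexes before and after the SGP division. No member reached a log2 ratio of 2, or of 1, in either direction at either time. In all entries the corresponding shares were 0.723% past 2 and 6.63% past 1 at 9.5 hr (14240 entries), and 2.5% and 14.5% at 15 hr (13667 entries). The widest differences at 9.5 hr were those of *cki-1*, higher in males by 0.83, and of *cdk-4*, lower in males at −0.80. *cdc-14* was at 0.35, *cdk-2* at −0.23 and *cki-2* at −0.21, and the other 5 members were between −0.12 and 0.15. Of all entries, 6.19% were at or above the ratio of *cki-1* and 4.75% at or below that of *cdk-4*.

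At 15 hr all 10 members were above 0, from 0.05 for *cye-1* and 0.06 for *cul-1* to 0.49 for *cdc-14* and 0.63 for *fzr-1*, where 56.3% of all entries were above 0. The signs of *cye-1* and *cul-1* turned when FPKM were rescaled to equal sums or ratios were centred on the median of all entries, 0.09. *cdk-4* was at 0.39 and *cki-1* at 0.27, so that *cdk-4* lay on the hermaphrodite side at 9.5 hr and on the male side at 15 hr, a difference of 1.2 on the log2 scale that was not tested. At 9.5 hr 5 of the 10 members were below 0, beside 49.3% of all entries. Markers of other cell types were also higher in male than in hermaphrodite gonadal cells, with 32 of 43 above 0 and a median of 0.43 at 9.5 hr, and 39 of 44 above 0 and a median of 0.75 at 15 hr. Their part in the members' sex differences was not tested. *cki-1* and *cdk-4* differed little between the sexes in whole animals at 9.5 hr, at 0.02 and −0.15.

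In whole animals no member reached a male to hermaphrodite log2 ratio of 1 or 2 at either time. The shares of all entries were 0.846% past 2 and 6.14% past 1 at 9.5 hr, where the hermaphrodite strain lacked *rdIs4*, and 0.734% and 5.41% at 15 hr. The members' ratios ran from −0.37 (*cye-1*) to 0.15 (*cki-2*) at 9.5 hr. At 15 hr all 10 were again above 0, from 0.13 (*lin-23*) to 0.53 (*cyd-1*), with 51.7% of all entries above 0. A higher value in males at 15 hr was thus seen in both tissues, with medians of 0.24 and 0.27 for the members and of 0.09 and 0.01 for all entries. The markers of other cell types had a median of −0.10 in whole animals at that time.

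Levels at 15 hr and 9.5 hr come from separate runs that were normalized separately, so that time and run cannot be told apart. The median log2 ratio of 15 hr over 9.5 hr over all entries was 0.03 in male and 0.05 in hermaphrodite gonadal cells, −0.11 in male and −0.19 in hermaphrodite whole animals. *cdk-4* had the largest ratio of the 10 members in both gonadal comparisons, 3.03 in males and 1.83 in hermaphrodites, with 0.47 and −0.03 in whole animals. It was the only member past a ratio of 2 in male gonadal cells, where 3.03% of 14523 entries were at or above 2 and 1.08% at or above *cdk-4*. *cki-1* was next, at 1.04 and 1.59 in male and hermaphrodite gonadal cells, but it also stood at 1.18 and 0.77 in whole animals.

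These were the only members at a log2 ratio of 1 or more over time. They made 2 of 10 in male gonadal cells beside 10.5% of all entries, 2 of 10 in hermaphrodite gonadal cells beside 7.86%, 1 of 10 (*cki-1*) in male whole animals beside 7.45%, and 0 of 10 in hermaphrodite whole animals beside 7.01%. In hermaphrodites the cyclins lay above 0 in gonadal cells and below 0 in whole animals. *cyd-1* was at 0.41 in hermaphrodite gonadal cells and −0.90 in hermaphrodite whole animals, and *cye-1* at 0.64 and −0.33. In males *cyd-1* was at 0.51 in gonadal cells but at −0.35 in whole animals, and *cye-1* at 0.82 and 0.28. *lin-23* stayed between 0.14 and 0.52 in the 4 comparisons, and *fzr-1* between −0.18 and 0.81. Genes of lists described below also reached 1 over time. Of S, G2 and M genes past the filter, 8 of 10 did in male and 6 of 11 in hermaphrodite gonadal cells. Their medians were 1.83 and 1.02. Of DNA replication genes 9 and 1 of 14 did, with medians of 1.22 and 0.45. For the anaphase promoting complex the counts were 6 and 1 of 11, and for Rb and E2F 1 and 0 of 4. No SCF part or CDK or cyclin outside the cell cycle did.

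Genes that act with the G1 regulators were examined as 6 lists, of which 69 of 79 genes were in the tables. The shares of all entries with a gonadal ratio of 1 or more, against which the lists' counts are to be read, were 10.9% (males) and 9.41% (hermaphrodites) at 9.5 hr, and 16.4% and 19.2% at 15 hr. In the retinoblastoma and E2F list, 4 of 4 genes had a log2 ratio of gonadal cells to whole animals of 1 or more at 15 hr in hermaphrodites and 2 of 4 did in males, with medians of 1.45 and 1.1. *lin-35*, the retinoblastoma protein that the G1 kinases phosphorylate, was at 1.85 in males and 1.52 in hermaphrodites, *dpl-1*, the DP partner of E2F, at 1.29 and 1.63, and the E2F gene *efl-1* at 0.92 and 1.39. Of 14 DNA replication genes, 14 in males and 12 in hermaphrodites had a ratio of at least 1 at this time, with medians of 1.67 and 1.5. *cdt-1*, which loads the replicative helicase, was at 2.05 and 2.45, and the helicase subunits *mcm-2* and *mcm-3* were at 2.13 and 1.81, and at 1.87 and 1.66. At 9.5 hr 2 of the 14 reached 1 in each sex, near the share of all entries, with medians of 0.47 and 0.71.

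Of 15 genes for S, G2 and M cyclins, CDK-1 and its regulators, 13 passed the filter in males and 14 in hermaphrodites at 15 hr, of which 7 and 8 had a gonadal ratio of 1 or more and 2 and 3 a ratio of −1 or less, where 34.3% and 38.2% of all entries were. The kinase gene *wee-1.3*, which restrains CDK-1, was at 2.17 and 2.24, the Aurora kinase gene *air-1* at 1.68 and 1.88, and *wee-1.1*, at most 0.903 FPKM in gonadal cells, at −1.63 and −2.06. In the anaphase promoting complex, 6 of 11 genes in males and 7 of 11 in hermaphrodites reached 1, with medians of 1.14 and 1.2. *fzy-1*, the Cdc20-type activator, was at 1.49 and 1.81 and the core subunit gene *mat-3* at 1.53 and 1.38. Both were named for the size of their ratios, so setting them beside *fzr-1*, the Cdh1-type activator, at 0.37 and −0.04, is no fair contrast. *mat-1* of the same list was at 0.51 and 0.41. The small subunit gene *apc-10* was at −1.58 and −2.42.

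The other cullins and SCF parts had medians of 0.60 in males and 0.62 in hermaphrodites, with 4 and 2 of 14 genes at 1 or more, beside 16.4% and 19.2% of all entries. The cullin genes *cul-6* and *cul-4*, named for the size of their ratios, were at 2.39 and 2.75, and at 1.14 and 0.96. *cul-1* was at 0.84 and 0.95, and the remaining cullins were below it in both sexes. These were *cul-2* (0.56 and 0.42), *cul-3* (0.82 and 0.62) and *cul-5* (0.63 and 0.54). *skr-2*, a Skp1-related adaptor that resembles *skr-1* and could share reads with it, was at −1.56 and −1.95. CDKs and cyclins that act outside the cell cycle had medians of 0.45 and 0.75, with 1 and 2 of 11 genes at 1 or more, beside 16.4% and 19.2% of all entries. *cdk-7*, which also activates other CDKs, was at 1.29 and 1.26, the cyclin T gene *cit-1.1* at 0.82 and 1.23, and the cyclin H gene *cyh-1* at 0.90 and 0.92. The members' own medians at this time, 0.73 and 0.79, were below those of the E2F, replication, S, G2 and M, and anaphase lists and above those of the SCF list and of the CDKs outside the cell cycle.

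Between the sexes, the DNA replication list at 9.5 hr had 14 of 14 genes lower in male than in hermaphrodite gonadal cells, beside 49.3% of all entries, with a median of −0.41, and the Rb and E2F list 4 of 4, with a median of −0.42. The S, G2 and M list had 10 of 11 genes lower in males, with a median of −0.64, while the members had 5 of 10, with a median of 0.04. At 15 hr 13 of 14 replication genes were higher in male gonadal cells, beside 56.3% of all entries, with a median of 0.52, compared with 0.24 for the members, 0.13 for the S, G2 and M list and 0.04 for the Rb and E2F list. All 10 members were above 0 at 15 hr, so any member below 0 at 9.5 hr necessarily had the sign of most replication genes at both times. There were 5 such members. These were *cdk-4*, at −0.80 and then 0.39, *cdk-2* (−0.23 and 0.32), *cki-2* (−0.21 and 0.13), *cye-1* (−0.12 and 0.05) and *cul-1* (−0.01 and 0.06). The 15 hr signs of *cye-1* and *cul-1* turned with rescaling to equal sums or centring on the median of all entries. *cki-1*, at 0.83 and 0.27, and the other members had the opposite sign at 9.5 hr. *cyd-1* was near 0 at 9.5 hr, at 0.10. In whole animals 12 of 14 replication genes and 14 of 15 S, G2 and M genes were lower in males at 9.5 hr. For Rb and E2F 1 of 4 was. The medians of these 3 lists were −0.16, −0.22 and 0.11, beside −0.07 for all entries. At 15 hr 14 of 14, 10 of 14 and 4 of 4 were higher in male whole animals, beside 51.7% of all entries. The medians there were 0.22, 0.27 and 0.28. Body wall muscle markers were higher in male gonadal cells at both times, with medians of 0.62 and 1.08 and 8 of 8 above 0, and whether this bears on the lists was not tested.

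**Figure D4:**
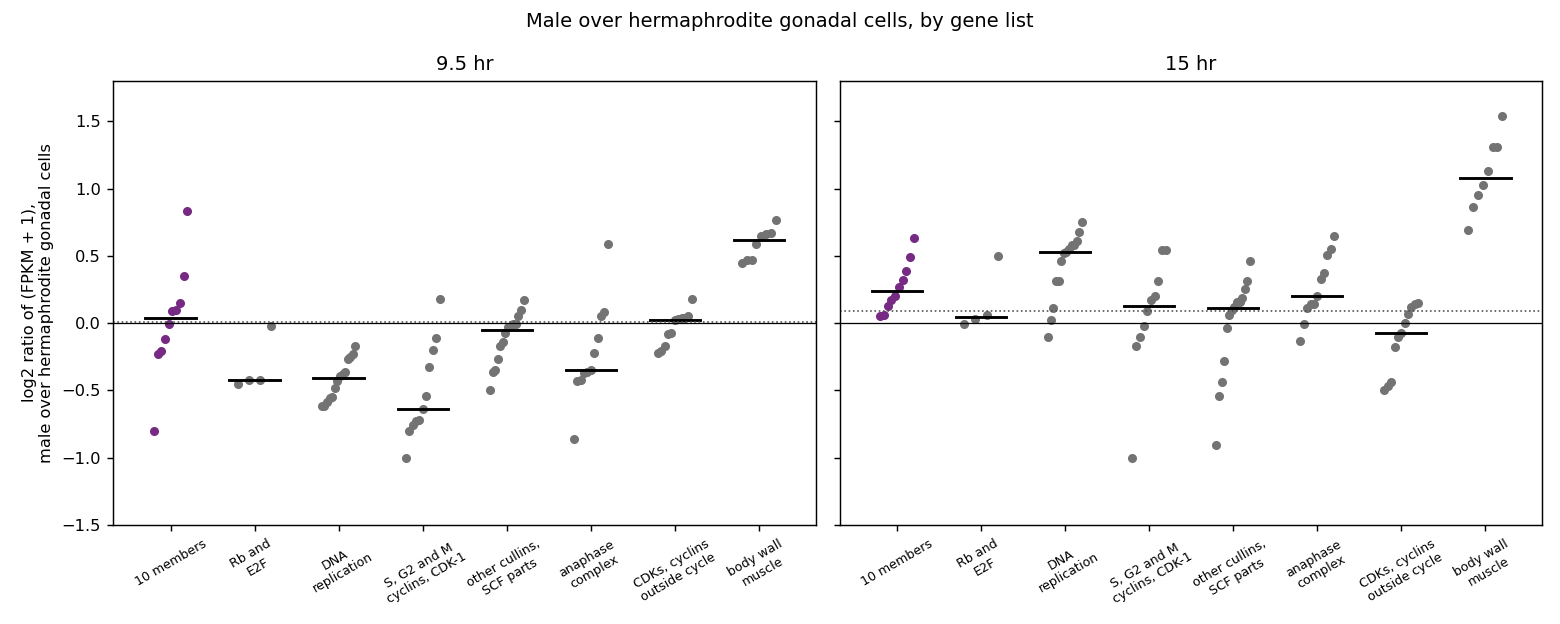
Log2 ratio of (pooled FPKM + 1) of male over hermaphrodite gonadal cells (y axis) at 9.5 hr (left) and 15 hr (right), with 1 point per gene that passed the filter, a bar at each list's median and a dotted line at the median of all entries. The 10 members (purple) ran from −0.80 (*cdk-4*) to 0.83 (*cki-1*) at 9.5 hr and from 0.05 to 0.63 at 15 hr, and all 14 DNA replication genes lay below 0 at 9.5 hr.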

How the data were processed

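RNA was extracted with TRIzol, ribosomal RNA was depleted with Ribo-Zero, and TruSeq libraries were made without polyA selection. Single-end reads of 50 bases were processed with CASAVA 1.8, Picard 1.56, TopHat 1.4.1 and Cuffdiff 2.1.1 on ce10, as the submitters' processing notes list them. Values were deposited by the authors as FPKM, 1 pooled value per group, in 2 tables of 4 groups from separate Cuffdiff runs for 9.5 and 15 hr. Strain names in the tables were mapped to groups by the methods. The tables also hold the authors' own fold changes, test statistics, p-values and q-values for 6 comparisons each, and these were not used. Sample-level values and reads were not analysed here, so depth per sample is unknown and no interval could be given. Unused per-sample columns numbered 0.

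For 12 comparisons the log2 ratio of (FPKM + 1) was computed over entries with at least 1 FPKM in 1 of the groups compared. The cutoffs were 2 and 1, and Python 3.11.15 with pandas 2.3.3 and numpy 2.4.6 was used. Only the arithmetic was checked, on simulated data with fixed changes in entries of at least 20 FPKM and no added spread. Of 19861 entries, 19 merged several genes, and 1 row per table without a gene name was left out. Members and lists were chosen with earlier results of these data known. All 10 members were described, and of each list the 3 genes with the largest absolute mean gonadal ratio at 15 hr among those with at least 5 FPKM. All 10 members were found, as protein-coding genes, in the WBcel235 annotation, which was used for strand only. Alternatives were pseudocounts of 0.1 and 5 FPKM, no filter or a filter of 5 FPKM, rescaling of each group to the same sum, centring on the median, and a cutoff of 1.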

Additional observations from a re-analysis of the deposited data

How the results depend on the processing

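The number of members past an absolute log2 ratio of 2 of gonadal cells over whole animals at 15 hr rested on small margins. In males it was 1, and it became 0 with a pseudocount of 5 FPKM or rescaling to the same sum, 2 with centring on the median of all entries and 3 with a cutoff of 1. In hermaphrodites it was 3 and became 1 with a pseudocount of 5 FPKM. Centring on the median of entries with 20 FPKM, chosen after seeing the data, gave 0 in both sexes. At 9.5 hr the count of 0 became 1 in hermaphrodites with centring on the median of all entries, and a cutoff of 1 gave 3 in hermaphrodites and 4 in males. Over time a cutoff of 1 gave 2 in male gonadal cells instead of 1, and 2 in hermaphrodite gonadal cells and 1 in male whole animals instead of 0. The cause of these moves was not tested. Of 88 such counts under an alternative, 75 were within 1.5 times the reported count. Of 760 member ratios under an alternative, 10 crossed the cutoff and 14 had the other sign, none with a reported absolute ratio above 0.39. Over all entries, between 103 and 3842 were past a cutoff of 2 in the 12 comparisons and between 826 and 8986 past a cutoff of 1. No paired analysis was possible because the tables hold 1 pooled value per group, and for the same reason no sample could be left out. Depth limits what can be said of genes near 1 FPKM in gonadal cells, among them *wee-1.1*, *apc-10* and, at 15 hr, *ehn-3*.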
